A study of Homo sapiens with 12 samples.

Results

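The genes described here are 9 genes of antigen presentation by HLA class I molecules: HLA-B, HLA-C, HLA-E, HLA-F, B2M, TAP1, TAP2, NLRC5 and PSMB9. They were taken by gene symbol from the 61044 rows of a count table of SCC-15 cells, a long-established oral squamous carcinoma line, and all 9 passed the filter on low counts that left 17532 genes for testing. The cells carried either a short hairpin RNA with no stated target (NC) or 1 of 3 hairpins against FMOD (shRNA1, shRNA2 and shRNA3), the gene of the matrix proteoglycan fibromodulin, and were harvested after 48 hours. Each of the 4 groups had 3 libraries of total RNA, 12 in all, and the study looked for genes whose expression depends on FMOD. The labels name no separate cultures for the libraries of a group, so p-values measure the spread between these libraries, which may be technical, and they give neither the vector nor whether the cells were pools or clones.

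Class I molecules are cell-surface complexes of a polymorphic heavy chain and the invariant light chain β2-microglobulin that show peptides from inside the cell to CD8+ T cells and natural killer cells. Proteasomes cut proteins into peptides, the TAP transporter carries the peptides into the endoplasmic reticulum, and loading factors and aminopeptidases fit them to the heavy chain. Interferon signalling through IRF1, NF-kB and the transactivator NLRC5 are known to raise transcription of these genes, and tumours, squamous carcinomas of the head and neck among them, often show low class I expression.

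Library totals ran from 17286934 to 19567192 rounded estimated counts. FMOD was counted 2, 2 and 3 times in the NC libraries and 0 times in each of the 9 shRNA libraries. At 18102639 counts, 2 reads correspond to 0.0134 to 0.399 CPM (counts scaled to a library total of 1000000, exact 95% Clopper-Pearson interval, counting error only), and 0 counts in the first shRNA1 library allow up to 0.190 CPM, so the depletion could not be measured at this depth and no fold is given. Profiles of the NC libraries correlated with each other at 0.993 to 0.994 (Pearson's r of log2 CPM over genes, which do not count as replicates) and with shRNA libraries at 0.829 to 0.855. Libraries of different hairpins correlated at 0.904 to 0.988, so NC stood apart from all of them. Whether the NC cells differed from the others in more than the hairpin was not tested. Within shRNA3 the range was 0.916 to 0.995: libraries 1 and 2 stood apart from library 3 and had the lowest scaling factors (0.771 and 0.794 by TMM, the method that corrects totals for composition). Results on shRNA3 for the 9 genes and the gene lists are therefore also given without libraries 1 and 2, which leaves a single shRNA3 library whose spread is assumed to be that of the other groups. Of 10 markers of squamous epithelium, all 10 reached 1 CPM in NC, and they moved in both directions: 4, 5 and 5 were called higher and 3, 4 and 4 lower with shRNA1, shRNA2 and shRNA3. Of all genes tested, 26.8%, 24.6% and 26.4% were higher and 30.6%, 28.4% and 27.6% lower. Basal keratin KRT5 went from 964.6 to 1049 CPM in the NC libraries down to 16.52 to 90.3 CPM with the hairpins, whereas its partner KRT14 went up, from 6.513 to 9.588 CPM to 24.18 to 230.5 CPM. KRT6A (78.07 to 108.2 CPM in NC, 185.3 to 451.5 CPM with the hairpins) and the desmosome gene DSP (265.2 to 325.4 and 570.5 to 1041 CPM) also rose with each hairpin. With all 3 hairpins, 4 of the 10 markers were called higher and 3 lower (19.7% of all genes were lower with all 3), and not all of them are named here.

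Of the 9 genes, 6 fell with every hairpin: the heavy chain genes HLA-B, HLA-C and HLA-F, both transporter genes TAP1 and TAP2, and PSMB9, a catalytic subunit of the immunoproteasome. The decreases were largest for HLA-F, PSMB9 and HLA-B (14.4-, 14.4- and 12-fold with shRNA1) and smallest for TAP2 (1.61-fold). B2M, the light chain gene, and HLA-E fell with shRNA1 and shRNA2 and did not pass the test with shRNA3. NLRC5, the class I transactivator gene, fell with none of the hairpins and rose 1.81-fold with shRNA3. At an adjusted p under 0.05 (edgeR quasi-likelihood test, Benjamini-Hochberg over all 17532 genes), 8 of the 9 genes were called lower with shRNA1, where 30.6% of all genes tested were called lower, 8 with shRNA2 (28.4% of all genes) and 6 with shRNA3 (27.6% of all genes), and 1 was called higher with shRNA3 (26.4% of all genes). Lower calls with all 3 hairpins were made for 6 of the 9 and for 19.7% of all genes. The same 6 genes had all 9 shRNA libraries below every NC library, which held for 25.8% of all genes. The 3 comparisons use the same NC libraries, so they are not independent of each other and share any difference of the NC cells. The median log2 fold change of the 9 genes was -1.86, -1.80 and -0.85 with shRNA1, shRNA2 and shRNA3, beside -0.02, -0.05 and -0.03 over all genes tested. With libraries 1 and 2 of shRNA3 left out, 8 genes were called lower with shRNA3 (28.8% of 19093 genes tested were) and 1 higher (28.1%).

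**Figure D1:**
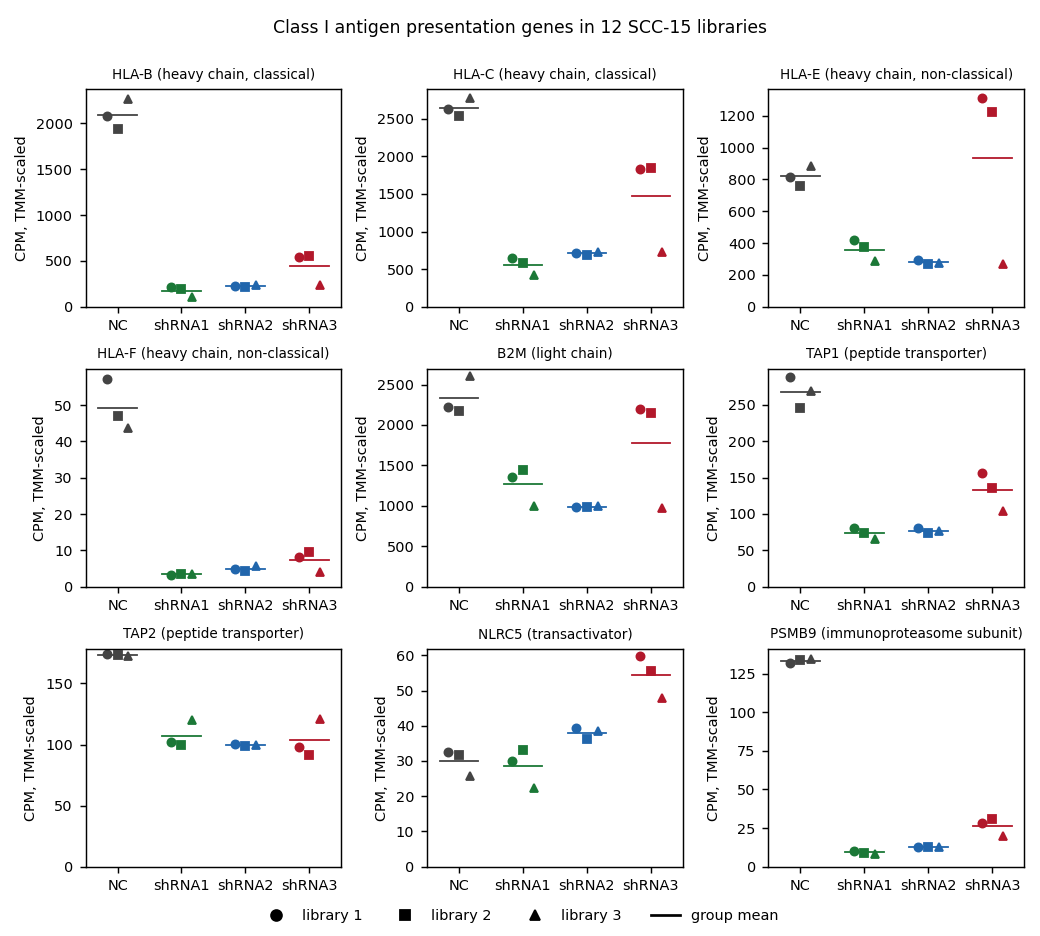
Expression of the 9 genes in each of the 12 libraries, in TMM-scaled CPM (linear axes from 0), by group, with a marker for each library and a line at each group mean. HLA-B, HLA-F and PSMB9 lay far below NC in all 9 shRNA libraries, while HLA-E and B2M in libraries 1 and 2 of shRNA3 were near or above NC levels (HLA-E at 1314 and 1222 CPM against 756.6 to 885.8 CPM in NC).

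**Figure D2:**
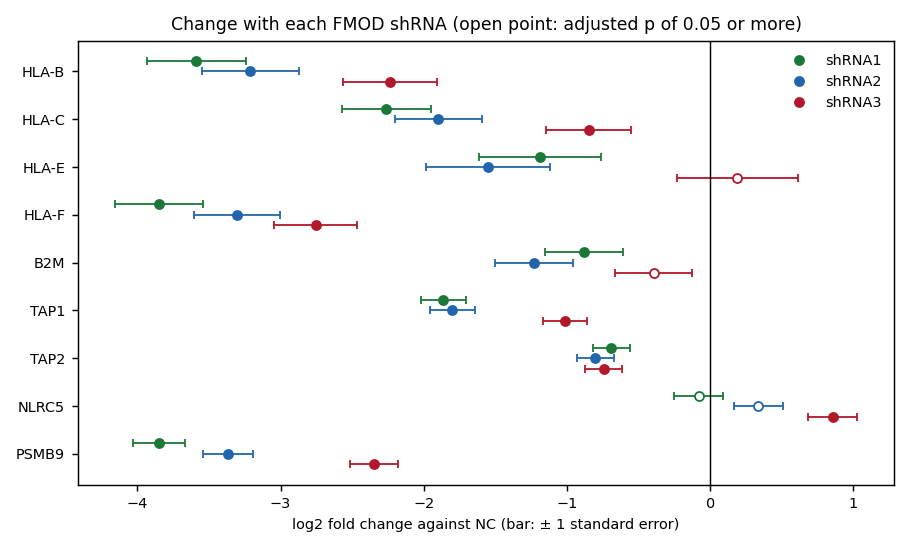
Fitted log2 fold change of each gene with each hairpin against NC, with bars of 1 standard error (3 libraries per group). Filled points passed an adjusted p of 0.05 and open points did not, and HLA-F and PSMB9 with shRNA1 lie farthest to the left, at -3.85 each.

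To show the promoters of genes that moved by different amounts, 4 stretches upstream of transcription starts are printed here from RefSeq on GRCh38.p14. They end 51 bases before the RefSeq start and begin 250 bases before it (213 for PSMB9, to stay clear of an exon of TAP1), and lie at chr6:31357230-31357429 (HLA-B) and chr6:31272143-31272342 (HLA-C) on the minus strand and at chr15:44711267-44711466 (B2M) and chr6:32853979-32854141 (PSMB9) on the plus strand. Each runs 5′ to 3′ in the direction of its gene, and capitals mark matches to 5 motifs, searched on either strand. The interferon-stimulated response element was searched only as GAANNGAAA and the gamma-activated sequence as TTCNNNGAA. The NF-kB motif was 10 bases long, with GGG first, then any 2 bases, TT, any base and CC. The core of the cyclic AMP response element was TGACG, a site of the ATF and CREB factors. The remaining motif, bound by the NF-Y factor and known as the inverted CCAAT box, overlaps none of the others in these stretches.
HLA-B: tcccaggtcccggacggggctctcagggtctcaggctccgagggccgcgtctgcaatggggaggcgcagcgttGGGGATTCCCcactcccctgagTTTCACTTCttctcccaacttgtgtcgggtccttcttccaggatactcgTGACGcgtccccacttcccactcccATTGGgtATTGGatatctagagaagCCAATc
HLA-C: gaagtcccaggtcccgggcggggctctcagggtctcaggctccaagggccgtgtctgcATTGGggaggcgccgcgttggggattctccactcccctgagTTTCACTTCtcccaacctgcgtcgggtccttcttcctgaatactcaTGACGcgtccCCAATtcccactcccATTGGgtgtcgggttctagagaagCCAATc
B2M: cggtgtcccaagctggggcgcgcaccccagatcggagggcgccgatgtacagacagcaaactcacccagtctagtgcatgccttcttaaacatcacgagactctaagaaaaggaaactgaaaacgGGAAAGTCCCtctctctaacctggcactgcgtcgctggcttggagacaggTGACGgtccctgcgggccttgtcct
PSMB9: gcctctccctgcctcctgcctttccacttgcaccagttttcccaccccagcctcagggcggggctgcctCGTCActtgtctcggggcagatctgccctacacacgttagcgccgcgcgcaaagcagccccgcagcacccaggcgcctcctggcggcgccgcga

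The HLA-B stretch holds an NF-kB match at -177 to -168 from the start, an interferon element at -155 to -147, a TGACG at -106 to -102 and 3 CCAAT boxes from -81 to -52. HLA-C has the interferon element (-151 to -143), the TGACG (-105 to -101) and 4 CCAAT boxes from -192 to -52, but no letters matching the NF-kB motif. B2M carries an NF-kB match at -125 to -116 and a TGACG at -75 to -71. In PSMB9 the printed stretch matches only TGACG, at -144 to -140 on the minus strand. RefSeq windows were matched for 7 of the 9 genes, all but HLA-E and NLRC5, and for TAP1 a match in either of its windows was counted. Over the 250 bases before a start, 3 of the 7 genes matched the interferon element (HLA-B, HLA-C and TAP2) and 3 the NF-kB motif (HLA-B, B2M and TAP1), which 6.56% and 5.07% of 35116 promoters of that length hold. CCAAT boxes were present in 6 of the 7 (32.0% of promoters), TGACG in 5 (21.2%) and the gamma-activated sequence in 1, TAP1 (6.57%). A match describes letters only and does not show that a factor binds there. A missing match does not show that an interferon element is absent, as other spacings were not searched. The printed B2M stretch holds gaaactgaaa, with GAA and GAAA set 1 base further apart. The windows of TAP1 and HLA-F hold letters with that spacing too.

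HLA-B (ENSG00000234745, chr6:31269491-31357188, minus strand) encodes a classical heavy chain and is among the most polymorphic human genes. Its level was 2079, 1936 and 2262 CPM in the NC libraries. It was 218.5, 196.2 and 106.6 CPM with shRNA1 and 222.3, 221 and 234.3 CPM with shRNA2. With shRNA3 it was 541.4, 554.8 and 237.6 CPM, so that every shRNA library lay far below every NC library and library 3 of shRNA3 lay with the shRNA2 libraries. The log2 fold changes were -3.59 (standard error 0.35, adjusted p = 7.91e-06 by edgeR), -3.21 (0.34, 1.56e-05) and -2.23 (0.33, 0.000171), or 12-, 9.26- and 4.71-fold lower. Without libraries 1 and 2 of shRNA3 its value was -3.11 (edgeR adjusted p = 3.05e-05).

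HLA-C (ENSG00000204525, chr6:31268749-31272130, minus strand), the other classical heavy chain gene of the set and a main ligand gene for natural killer cell receptors, was at 2628, 2528 and 2770 CPM in NC. It was at 646, 586.5 and 420.6 CPM with shRNA1 and at 715.3, 687.8 and 722.1 CPM with shRNA2. The shRNA3 libraries had 1833, 1841 and 728.3 CPM, all below NC but spread over a wide range. HLA-C fell 4.79-fold with shRNA1 (log2 -2.26, standard error 0.31, adjusted p = 9.56e-05 by edgeR), 3.73-fold with shRNA2 (-1.90, 0.31, 0.00032) and 1.80-fold with shRNA3 (-0.85, 0.30, 0.0307). The shRNA3 call was lost when any NC library or library 3 of shRNA2 was left out (edgeR adjusted p from 0.0568 to 0.0725). It was also lost in a fit of only the groups compared (log2 -0.77, edgeR adjusted p = 0.162). Without libraries 1 and 2 of shRNA3 the log2 fold change was -1.83.

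HLA-E (ENSG00000204592, chr6:30489467-30494205, plus strand) is a non-classical heavy chain gene whose product shows leader peptides of other class I chains to the NKG2A receptor. NC libraries had 817, 756.6 and 885.8 CPM. The shRNA1 libraries had 421.1, 373.2 and 285.1 CPM and the shRNA2 libraries 292.4, 269.6 and 278.3 CPM, all below NC. In shRNA3, libraries 1 and 2 stood above every NC library, at 1314 and 1222 CPM, and library 3 stood at 269.1 CPM, level with shRNA2. The log2 fold changes were -1.19 (standard error 0.43, adjusted p = 0.033 by edgeR) with shRNA1, a call lost when any NC or shRNA1 library was left out (0.0564 to 0.11), -1.55 (0.43, 0.0103) with shRNA2 and 0.19 (0.42, 0.726) with shRNA3. Left without libraries 1 and 2, shRNA3 gave -1.58 (edgeR adjusted p = 1.37e-05), and left without library 3 it gave 0.63 (0.000486), so the direction with shRNA3 rested on which library was kept.

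HLA-F (ENSG00000204642, chr6:29722775-29738528, plus strand) encodes a non-classical heavy chain with restricted surface expression. It was counted at 57.16, 46.88 and 43.58 CPM in NC. With shRNA1 it was at 3.283, 3.488 and 3.458 CPM, with shRNA2 at 4.977, 4.284 and 5.65 CPM and with shRNA3 at 8.232, 9.693 and 4.023 CPM. No shRNA library came near an NC library. It fell by 3.85, 3.31 and 2.76 on the log2 scale with shRNA1, shRNA2 and shRNA3 (standard errors 0.31, 0.30 and 0.29, adjusted p = 2.12e-06, 5.07e-06 and 1.66e-05 by edgeR), which is 14.4-, 9.89- and 6.75-fold. With library 3 as the only shRNA3 library, the log2 fold change was -3.58 (edgeR adjusted p = 1.07e-07). HLA-F-AS1, which overlaps it on the opposite strand, had 370 to 407 counts in NC and 99 to 158 with shRNA1, shRNA2 and library 3 of shRNA3, but 870 and 1090 counts in libraries 1 and 2 of shRNA3.

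B2M (ENSG00000166710, chr15:44711487-44718877, plus strand), the light chain gene, was at 2218, 2167 and 2607 CPM in NC. The shRNA1 libraries had 1360, 1440 and 993.7 CPM and the shRNA2 libraries 988.2, 985.6 and 999.5 CPM, below NC without overlap. With shRNA3, libraries 1 and 2 lay within the NC range or just under it, at 2196 and 2145 CPM, and library 3 lay at 978.4 CPM. B2M fell 1.84-fold with shRNA1 (log2 -0.88, standard error 0.27, adjusted p = 0.0156 by edgeR) and by 1.23 on the log2 scale with shRNA2 (0.27, 0.00262), and the change with shRNA3 did not pass (-0.39, 0.27, 0.237). The shRNA1 call was lost without NC library 3 (edgeR adjusted p = 0.0534) or shRNA1 library 3 (0.0639). Without libraries 1 and 2 of shRNA3 the value was -1.22 (edgeR adjusted p = 0.000115).

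The HLA genes differ from each other by few bases in long stretches, so reads can be assigned to the wrong one, and the alleles of SCC-15 differ from the reference. Of the 50-base windows of the annotated transcripts, 2.72% for HLA-B, 5.38% for HLA-C, 4.34% for HLA-E and 0.977% for HLA-F also occur in another gene, and none do for B2M. HLA-B and HLA-C also overlap in the annotation, since a transcript model of HLA-B reaches into HLA-C. To set a value free of this split, the counts of 15 HLA class I genes and pseudogenes were added up, an alternative chosen after seeing the data. The sum was 7380.5, 6978.1 and 7917.9 CPM in NC, 1286 to 2097.5 CPM with shRNA1 and 1930.1 to 2040.8 CPM with shRNA2. In shRNA3 it was 5763.4, 5744 and 1947.7 CPM. The summed counts fell by 2.08 (standard error 0.35, edgeR adjusted p = 0.000438) and 1.90 (0.35, 0.000824) on the log2 scale with shRNA1 and shRNA2, and the change with shRNA3 did not pass (-0.73, 0.34, 0.0918).

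TAP1 (ENSG00000168394, chr6:32845209-32853978, minus strand) and TAP2 encode the subunits of the peptide transporter. TAP1 was at 287.8, 245.2 and 269.5 CPM in NC. It was at 80.69, 74.26 and 65.5 CPM with shRNA1 and at 80.15, 73.23 and 76.78 CPM with shRNA2. With shRNA3 it was at 156.1, 136.4 and 104.6 CPM, between the other hairpins and NC, and no shRNA library reached an NC library. TAP1 fell 3.64-, 3.49- and 2.02-fold (log2 -1.86, -1.80 and -1.02, standard errors 0.16, 0.16 and 0.15, edgeR adjusted p = 3.13e-06, 3.99e-06 and 0.000225). The shRNA3 value was -1.32 (7.06e-06 by edgeR) without libraries 1 and 2.

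TAP2 (ENSG00000204267, chr6:32821833-32838780, minus strand) had nearly the same level in each NC library, at 173.9, 173.1 and 172.6 CPM. The levels were 102.2, 99.89 and 120 CPM with shRNA1, 100.3, 98.54 and 99.27 CPM with shRNA2 and 97.74, 91.25 and 121.3 CPM with shRNA3. All 3 groups lay below NC and overlapped each other, whereas TAP1 was higher with shRNA3 than with either other hairpin. TAP2 fell 1.61-, 1.74- and 1.67-fold (log2 -0.69, -0.80 and -0.74, standard error 0.13 each, edgeR adjusted p = 0.000889, 0.000349 and 0.00059), and library 3 of shRNA3 alone gave -0.48 (edgeR adjusted p = 0.00555). The gene AL669918.1 overlaps TAP2 on the same strand, 31.3% of the 50-base windows of TAP2 occur in another gene, and AL669918.1 itself held 421 to 872 counts per library, so the division of counts between them is uncertain.

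PSMB9 (ENSG00000240065, chr6:32844136-32859585, plus strand) encodes the immunoproteasome subunit that replaces the constitutive subunit of PSMB6. NC libraries had 131.6, 134.1 and 134.5 CPM. The levels were 10.4, 9.059 and 8.31 CPM with shRNA1, 12.88, 13.02 and 12.8 CPM with shRNA2 and 28.11, 30.61 and 20.01 CPM with shRNA3. The 4 groups did not overlap each other, and all 3 hairpins lay far below NC. PSMB9 fell 14.4-, 10.3- and 5.09-fold (log2 -3.85, -3.37 and -2.35, standard errors 0.18, 0.18 and 0.17, edgeR adjusted p = 7.58e-08, 1.24e-07 and 1.01e-06). Leaving out libraries 1 and 2 of shRNA3 gave -2.71 (edgeR adjusted p = 2.42e-08). TAP1 and PSMB9 lie head to head and overlap on opposite strands, as PSMB9 does with PSMB8, and whether reads were counted by strand is not given in the sources used here. PSMB8-AS1, which overlaps both, had 128 to 191 counts in NC and 12 to 49 with the hairpins.

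NLRC5 (ENSG00000140853, chr16:56989485-57083531, plus strand), a NOD-like receptor that acts on class I promoters, was the only one of the 9 without a lower call. It was at 32.67, 31.72 and 25.87 CPM in NC and at 30.05, 33.04 and 22.35 CPM with shRNA1, so that those groups overlapped. The shRNA2 libraries had 39.34, 36.14 and 38.39 CPM and the shRNA3 libraries 59.85, 55.68 and 47.93 CPM, above every NC library. The log2 fold changes were -0.08 (standard error 0.17, edgeR adjusted p = 0.714), 0.34 (0.17, 0.118) and 0.86 (0.17, 0.00137), the last being 0.70 (edgeR adjusted p = 0.00693) without libraries 1 and 2 of shRNA3. A call for the mean of the 3 hairpins (0.37, standard error 0.14, edgeR adjusted p = 0.0404) was lost when counts were scaled by DESeq2 size factors (0.0578) or by library totals (0.306), and without any NC library (0.0608 to 0.202). It was also lost with no low-count filter (0.0759) or a filter at a mean of 50 counts (0.096). The same held without library 1 or 2 of shRNA1 (edgeR adjusted p = 0.0582 and 0.0585) or of shRNA2 (0.0645 and 0.0519). For the mean of the 3 hairpins, 8 of the 9 genes were called lower and 1 higher, where 32.2% and 27.9% of all genes were. The lower call of HLA-E in that mean (log2 -0.85, edgeR adjusted p = 0.0431) was lost with no low-count filter (0.0981) and when any NC library (0.0836 to 0.125), any shRNA1 library (0.052 to 0.0756) or any shRNA2 library (0.0619 to 0.0771) was left out.

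The hairpins were also compared with each other. Between shRNA1 and shRNA2 none of the 9 genes passed the edgeR test (12.3% of all genes were called). At an unadjusted p under 0.05 the count was 2 (NLRC5, PSMB9), where 27.9% of all genes passed, and DESeq2 called 0, where it called 19.8% of all genes. Against shRNA3, shRNA1 was lower for 7 genes, all but B2M and TAP2 (18.1% of all genes were called lower), and shRNA2 for 3, HLA-E, TAP1 and PSMB9 (6.43% of all genes). PSMB9 differed by -1.50 on the log2 scale (standard error 0.17, edgeR adjusted p = 0.00152) between shRNA1 and shRNA3 and by -1.02 (0.16, 0.0245) between shRNA2 and shRNA3. For HLA-C the differences were -1.41 (0.30, edgeR adjusted p = 0.00945) and -1.05 (0.30, 0.0515). NLRC5 was lower with shRNA1 than with shRNA3 too (log2 -0.94, standard error 0.17, edgeR adjusted p = 0.00581). Without libraries 1 and 2 of shRNA3, 3 genes were called lower with shRNA1 than with shRNA3 (4.88% of all genes were) and 1 with shRNA2 (0.707%), and 6 of the 9 differed between shRNA1 and shRNA2 (36.8%).

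Per kilobase of annotated exon, the NC order of levels was HLA-C (1054 ± 48.5 CPM per kb, SD, n = 3), HLA-B (686 ± 53.6), B2M (383 ± 39.6), HLA-E (276 ± 21.7), TAP1 (55.7 ± 4.45), PSMB9 (43.4 ± 0.511), TAP2 (27.1 ± 0.104), HLA-F (11.3 ± 1.63) and NLRC5 (2.43 ± 0.297). No neighbours in this order lay within their joint spread. With shRNA1 the order became HLA-C (220 ± 46.6 CPM per kb), B2M (208 ± 39.2), HLA-E (121 ± 23.2), HLA-B (57.0 ± 19.4), TAP2 (16.8 ± 1.72), TAP1 (15.3 ± 1.59), PSMB9 (3.01 ± 0.344), NLRC5 (2.30 ± 0.445) and HLA-F (0.785 ± 0.0254). HLA-B dropped from rank 2 to rank 4, below HLA-E, and PSMB9 came within the spread of NLRC5, as did HLA-C of B2M and TAP2 of TAP1. In shRNA2, HLA-B (74.0 ± 2.39 CPM per kb) was again at rank 4, under HLA-E (94.2 ± 3.87), and TAP1 and TAP2 lay within their spread. The 4 highest genes of shRNA3, led by HLA-C (585 ± 255 CPM per kb), each overlapped the next within their spread. The exon lengths are those of all annotated transcripts together, so the levels are approximate.

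Within a library, ratios of counts do not depend on scaling, and those given here were not tested. TAP1 stood at 2.01 ± 0.179 counts per count of PSMB9 in NC (SD, n = 3) and at 7.95 ± 0.226, 5.95 ± 0.303 and 5.08 ± 0.565 with shRNA1, shRNA2 and shRNA3. The ratio was above every NC value in all 9 shRNA libraries. PSMB9 to PSMB6, the immune to the constitutive subunit, was 1.14 ± 0.107 in NC and 0.0598 ± 0.0107, 0.0708 ± 0.00525 and 0.172 ± 0.00787 with the hairpins. For the other pairs the change was smaller: PSMB8 to PSMB5 went from 1.23 ± 0.0773 to 0.395 ± 0.0883, 0.469 ± 0.0308 and 0.743 ± 0.0735. PSMB10 to PSMB7 went from 0.16 ± 0.00876 to 0.0563 ± 0.0201, 0.0461 ± 0.00307 and 0.0796 ± 0.00448.

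HLA-B, HLA-C and HLA-F counts were lower relative to the light chain in all 9 shRNA libraries. HLA-B to B2M was 0.899 ± 0.0352 in NC and 0.135 ± 0.0267, 0.228 ± 0.00566 and 0.249 ± 0.00824 with shRNA1, shRNA2 and shRNA3. Here the 3 shRNA3 libraries agree within a narrow range, 0.243 to 0.259, although library 3 had far less of both RNAs than libraries 1 and 2. HLA-C to B2M was 1.14 ± 0.066 in NC and 0.435 ± 0.0353, 0.715 ± 0.0146 and 0.812 ± 0.0601 with the hairpins. HLA-E to B2M was 0.34 to 0.368 in NC, 0.259 to 0.31 with shRNA1 and 0.274 to 0.296 with shRNA2, but 0.598, 0.57 and 0.275 in the shRNA3 libraries. TAP1 to TAP2 split the same libraries, with 1.42 to 1.65 in NC, 1.60 and 1.49 in libraries 1 and 2 of shRNA3, 0.863 in library 3 and 0.546 to 0.799 with the other hairpins.

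**Figure D3:**
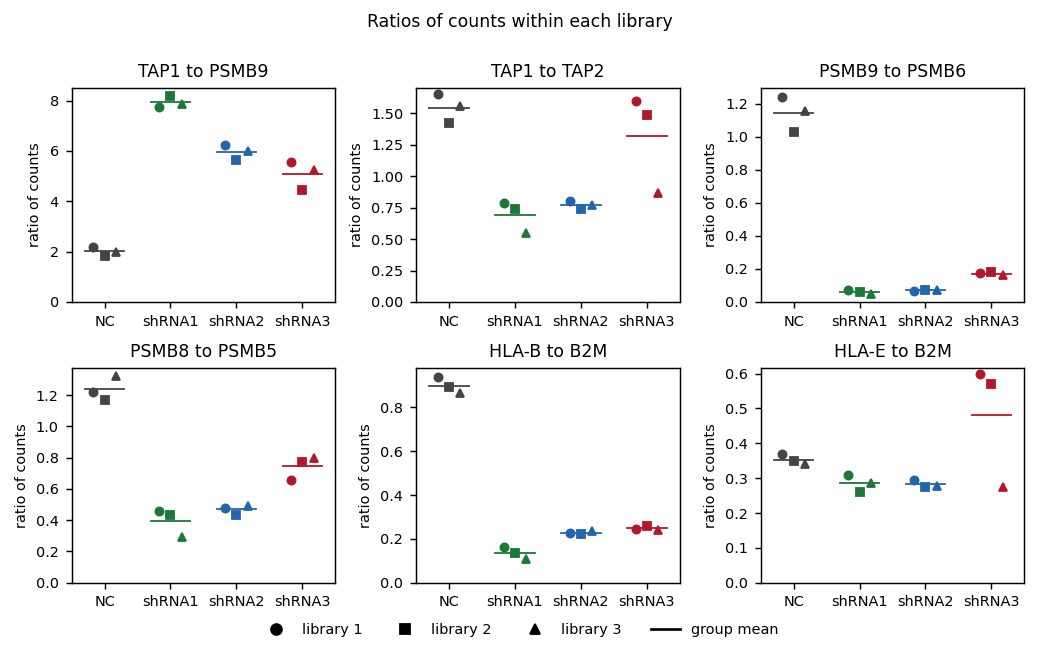
Ratios of the counts of 2 genes within each library (linear axes from 0), by group, with a marker for each library and a line at each group mean. TAP1 to PSMB9 lay above its NC range of 1.83 to 2.19 in every shRNA library, the immune to constitutive proteasome ratios and HLA-B to B2M lay below NC in every one, and TAP1 to TAP2 and HLA-E to B2M separated library 3 of shRNA3 from libraries 1 and 2.

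Peptide loading and trimming genes were mostly lower. Of 10 listed genes, 7 were lower and 1 higher with shRNA1, 8 and 1 with shRNA2 and 6 and 1 with shRNA3, with medians of -1.08, -1.08 and -0.68 on the log2 scale. Over all genes tested, the calls with shRNA1, shRNA2 and shRNA3 were 30.6%, 28.4% and 27.6% lower and 26.8%, 24.6% and 26.4% higher, and the counts of the lists are read against these shares. ERAP2, an aminopeptidase that trims peptides in the endoplasmic reticulum, fell the most, to 7.62 ± 1.33, 3.91 ± 0.616 and 5.12 ± 0.564 CPM (SD, n = 3 each) against 118.4 ± 8.21 CPM in NC. TAPBP, the gene of tapasin, which holds the heavy chain at the transporter, fell from 487 ± 48.2 CPM to 85.0 ± 14.2, 152 ± 2.67 and 302 ± 125 CPM, with shRNA3 close to the threshold (edgeR adjusted p = 0.0494). CALR, PDIA3 and ERAP1, which encode the chaperone calreticulin, a thiol oxidoreductase of the loading complex and a second aminopeptidase, also fell with every hairpin, ERAP1 from 76.4 ± 7.93 CPM to 28.5 ± 9.73, 40.5 ± 1.12 and 44.7 ± 12.4 CPM. SEC61A1, a translocon gene, was the member that rose with every hairpin (log2 0.69, 0.85 and 1.0, edgeR adjusted p = 0.000776, 0.000209 and 6.54e-05).

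Among 9 proteasome genes other than PSMB9, the interferon-inducible and the constitutive ones went separate ways. The activator genes PSME1 and PSME2 and the other immunoproteasome subunit genes, PSMB8 and PSMB10, fell with each hairpin, PSME1 the most (log2 -1.80, -1.95 and -1.14, edgeR adjusted p = 1.44e-05, 8.46e-06 and 0.000365). PSMB8 fell by 1.20, 0.87 and 0.77 and PSMB10 by 1.26, 1.28 and 0.80 on the log2 scale. Their constitutive counterparts were higher or not called: PSMB5 rose by 0.47 and 0.52 with shRNA1 and shRNA2 (-0.04, edgeR adjusted p = 0.803 with shRNA3), and PSMB6 by 0.41 and 0.64 (0.38, 0.0514). PSMB7 rose by 0.51 with shRNA2 and did not pass with shRNA1 (0.33, edgeR adjusted p = 0.118) or shRNA3 (0.22, 0.295). POMP, a proteasome assembly factor, rose with all 3 (log2 0.77, 0.66 and 0.42). In all, 4 of the 9 were lower with each hairpin (30.6%, 28.4% and 27.6% of all genes were), and 4, 5 and 1 were higher with shRNA1, shRNA2 and shRNA3 (26.8%, 24.6% and 26.4%).

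Other class I and class I-like genes did not move as a block: of 15, 7, 6 and 6 were lower and 3, 3 and 4 higher with shRNA1, shRNA2 and shRNA3, where 30.6%, 28.4% and 27.6% of all genes were lower and 26.8%, 24.6% and 26.4% higher. FCGRT, the neonatal Fc receptor gene, had 58.6 ± 1.98 CPM in NC and fell to 0.382 ± 0.0189, 0.320 ± 0.166 and 0.802 ± 0.317 CPM with the hairpins. CD1D, which presents lipids, had 4.211 to 4.383 CPM in NC and 0 counts in all 9 shRNA libraries, which is at least 28.8-, 25.3- and 21.9-fold lower against a floor of 3 counts per library. Ligand genes of the NKG2D receptor split, with ULBP1 (log2 -3.72, -3.82 and -2.81) and ULBP2 (-1.57, -1.74 and -0.75, the last with an edgeR adjusted p = 0.0484) lower and RAET1E higher (3.97, 3.91 and 4.42). HLA-G, which inhibits natural killer cells, rose from 0.990 ± 0.307 CPM to 5.39 ± 1.73, 3.89 ± 0.723 and 7.10 ± 1.56 CPM, and whether reads assigned from other HLA genes contribute at these levels was not tested. Of 9 class I pseudogenes 4 were tested, and 4, 4 and 3 were lower, HLA-V among them (log2 -2.44, -3.37 and -1.18).

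Class II presentation genes, which serve CD4+ T cells, fell as well, several of them to the limit of detection. Of 15 listed, 14 were tested, and with each hairpin 13 were lower and 1 higher. Of all genes, 30.6%, 28.4% and 27.6% were lower and 26.8%, 24.6% and 26.4% higher with shRNA1, shRNA2 and shRNA3. CD74, the invariant chain gene, was at 659.4 to 730.3 CPM in NC and at 0.548 ± 0.0724, 0.304 ± 0.175 and 0.729 ± 0.375 CPM with the hairpins. HLA-DRA, at 109.2 to 124.7 CPM in NC, had 3 counts or fewer in every shRNA library, at least 780-, 686- and 594-fold lower. HLA-DRB1, HLA-DRB5, HLA-DPB1 and HLA-DMB were likewise at least 125-fold lower with each hairpin. CIITA, the class II transactivator gene and a relative of NLRC5, had 16.26, 17.43 and 14.05 CPM in NC and 0.796 to 1.55 CPM in the shRNA libraries (log2 -3.89, -3.62 and -3.81, edgeR adjusted p = 2.39e-06, 3.62e-06 and 3.15e-06). IFI30, a lysosomal thiol reductase of the same route, was the one that rose, with 57.6 ± 5.02 CPM in NC, 136 ± 31.2 CPM with shRNA1, 167 ± 5.74 CPM with shRNA2 and 277 ± 58.0 CPM with shRNA3.

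**Figure D4:**
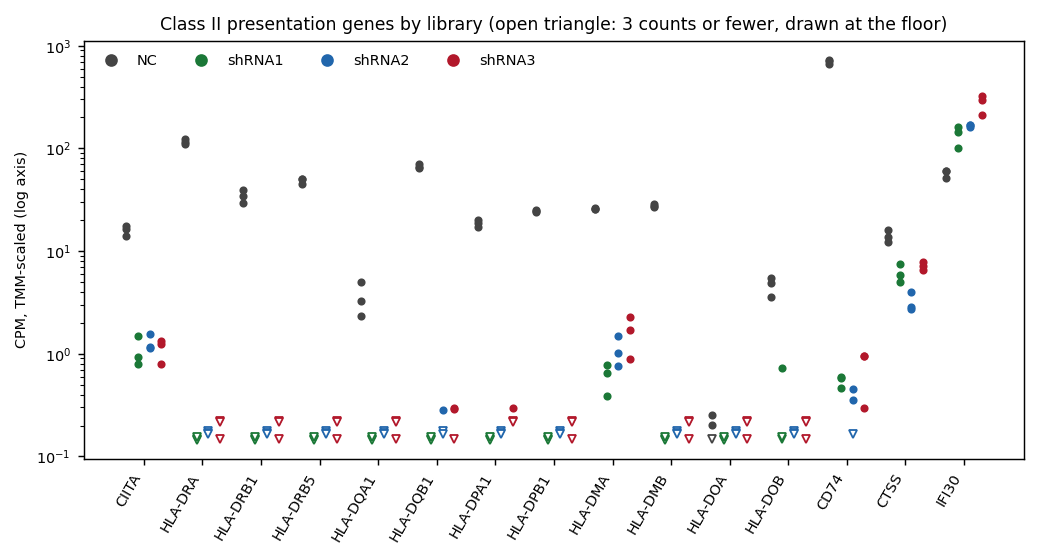
Class II presentation genes in each library (CPM, log axis), coloured by group, with values of 3 counts or fewer drawn as open triangles at the level of 3 counts. NC points lie above the shRNA points for the genes lower with each hairpin, CD74 at 659.4 to 730.3 CPM in NC and below 1 CPM in all 9 shRNA libraries, and IFI30 lies the other way round.

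Factors that act on class I promoters moved in both directions. Of 8 listed, 3, 4 and 3 were higher and 1, 1 and 2 lower with shRNA1, shRNA2 and shRNA3, beside 26.8%, 24.6% and 26.4% higher and 30.6%, 28.4% and 27.6% lower among all genes. ATF1, which binds cyclic AMP response elements, rose by 1.87, 1.59 and 1.56 on the log2 scale, and NFYB and NFYA, subunits of the CCAAT-binding factor, rose by 1.34, 1.08 and 1.36 and by 0.80, 0.65 and 0.77. CREB1 and RFXAP had all shRNA libraries below every NC library, which held for 25.8% of all genes. None of the 8 factors was called lower with all 3 hairpins. CREB1 was at 39.6 ± 2.44 CPM in NC and 31.4 ± 3.83, 20.8 ± 1.02 and 18.5 ± 2.34 CPM with the hairpins. RFXAP was at 13.3 ± 0.956 CPM in NC and 5.42 ± 0.906, 7.36 ± 1.05 and 6.54 ± 4.54 CPM with the hairpins. RFX5, a subunit of the factor that binds the X box, had 37.4 ± 2.58 CPM in NC and 38.6 ± 2.88, 48.2 ± 1.0 and 43.0 ± 7.42 CPM with the hairpins, and passed with none (log2 0.04, 0.36 and 0.20, edgeR adjusted p = 0.813, 0.0515 and 0.26).

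Among 19 interferon and NF-kB signalling genes, 9, 11 and 10 were lower, where 30.6%, 28.4% and 27.6% of all genes were, and 2, 2 and 4 higher, where 26.8%, 24.6% and 26.4% were. STAT2, part of the factor that binds interferon-stimulated response elements, fell by 2.37, 2.10 and 1.47 on the log2 scale. IRF1, an activator of class I promoters, had 142 ± 5.99 CPM in NC and 44.5 ± 7.81, 24.7 ± 1.14 and 69.2 ± 32.0 CPM with the hairpins (log2 -1.67, -2.52 and -1.04). The NF-kB subunit genes divided: RELB (log2 -1.27, -2.18 and -1.60) and NFKB2 (-1.26, -1.98 and -1.03) fell and NFKB1 rose (1.80, 1.86 and 1.25). Without libraries 1 and 2 of shRNA3, the calls with shRNA3 were 9 lower and 5 higher in this list, 6 and 1 among the loading genes, 4 and 2 among the proteasome genes, 8 and 4 among the other class I genes, 13 and 1 among the class II genes and 1 and 5 among the promoter-binding factors. Of all genes, 28.8% were lower and 28.1% higher in that fit.

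Over the 12 libraries, the genes whose log2 levels followed HLA-B most closely were GM2A (Pearson's r = 0.995), GAA (0.994) and STAT2 (0.994). For PSMB9 they were APLP1 (r = 0.997), AOX3P and SPINT1, for HLA-F CHPF (0.996), ALDH4A1 and EBF4, and for TAP1 TRAPPC6A (0.992), GM2A and SPINT1. For HLA-C they were ZFPL1 (0.995), TRPM4 and HHLA3, for TAP2 DUBR (0.991), IFIH1 and SPCS2, and for B2M SAV1 (0.987), IFT20 and TPT1. For HLA-E they included CREBRF (0.989) and YPEL5. NLRC5 had the weakest partners, RTN4R (0.953), DGAT1 and ATP6V0C. The libraries form groups, so such values are descriptions: of 14673 genes compared, 1361 had r over 0.9 with PSMB9, 1237 with HLA-B and 46 with NLRC5.

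Markers of other cell types were followed because leukocytes and endothelium carry much class I and class II RNA. Of 10 leukocyte markers, 3 reached 1 CPM in NC, and PTPRC, MS4A1, NKG7 and TYROBP were among those with 0 counts in all NC libraries. Their summed level was 59.7 to 78.1 CPM in NC, 45.3 to 98.3 CPM with shRNA1, 82.1 to 88.7 CPM with shRNA2 and 111 to 237 CPM with shRNA3. Nearly all of it was CD68, a lysosomal gene not restricted to leukocytes, at 53.68 to 71.95 CPM in NC and 108.1 to 235.5 CPM with shRNA3, the hairpin with which it was called higher. CD14 (3.602 to 4.826 CPM in NC, 0.4129 to 2.271 CPM in the shRNA libraries) and ITGAM (0.985 to 1.767 and 0.2915 to 0.8259 CPM), the other markers tested, fell with each hairpin. The 6 endothelial markers summed to 18.0 to 23.4 CPM in NC and to 4.03 to 6.09, 6.87 to 8.57 and 8.75 to 14.3 CPM with the hairpins, and of the 3 tested, 1 was higher and 2 lower with each hairpin. PECAM1 rose, from 0.101 to 0.197 CPM in the NC libraries to 2.089 to 9.685 CPM in the others, and CDH5 fell, from 17.3 ± 2.78 CPM to 0.519 to 2.76 CPM. The 8 fibroblast markers, with DCN, THY1 and POSTN at 0 counts in NC, summed to 56.7 to 59.6 CPM in NC and to 15.6 to 21.8, 44.2 to 48.2 and 32.9 to 86.7 CPM, and COL1A2 was at 4.515 to 5.319 CPM in NC and at most 0.207 CPM with the hairpins. The squamous markers summed to 2630 to 2810 CPM in NC and 2290 to 3260 CPM with the hairpins. The part of these differences in the class I results was not tested, and in bulk RNA fewer cells with a gene active and less of its RNA per cell cannot be told apart.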

How the data were processed

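The authors deposited 1 table with an estimated count for each gene in 12 libraries, unscaled, in which 13.8% of the values are not whole numbers. The submitters' processing notes name HISAT2, HTSeq 0.11.2 and GRCh38. The annotation and the use of strand are not given in the sources used here. Columns were matched to samples by title. Counts were rounded to whole numbers, symbols came from a table of gene names (60463 IDs matched), and positions and exon lengths came by Ensembl ID from GENCODE 29 on GRCh38. A total of 27430 of the 61044 rows were at 0 in all libraries.

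Genes were kept by filterByExpr (minimum count 10, minimum total 15), which left 17532, scaled by TMM and tested two-sided with the quasi-likelihood F test of edgeR 4.0.16 (R 4.3.3, robust) in 1 model of the 4 groups over 12 libraries (8 residual degrees of freedom, common biological coefficient of variation 0.289). P-values were adjusted by Benjamini-Hochberg over all 17532 genes with a threshold of 0.05. Standard errors of log2 fold changes were computed as size over the square root of F. The fit was tested on simulated data. Contrasts were each hairpin against NC, their mean against NC, and the 3 pairs of hairpins. Folds against a group with 3 counts or fewer per library are lower bounds against a floor of 3 counts per library. Floors and intervals describe counting error alone, as reads that carry no molecular identifier can stem from 1 molecule.

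The 9 genes and all lists were chosen with earlier results of these data known. The rule for other names was, per list, the genes called with 1 sign for all 3 hairpins at a mean of at least 1 CPM, at most 6 by the size of the mean change, with the constitutive and immune proteasome subunits, IRF1, RFX5 and CIITA always. A few genes that these rules name are not reported here. Features that overlap the 9 genes, IFI30, CD68, ITGAM, CREB1 and RFXAP were named after their values were seen. For each of the 9 genes the 3 genes with the highest Pearson's r of log2(CPM + 1) were named. Shared stretches are 50-base windows of GENCODE 29 transcripts. No replicates agreed within sampling noise (the smallest chi-square per gene between libraries of a group was 3.47). The titles share the numbers 1 to 3 across groups, and same-numbered libraries did not deviate together (mean r = -0.0107 over 18 pairs), so no block was used in the reported fit.

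Alternatives were DESeq2 1.42.0 (size factors and Wald test), library totals, no low-count filter, a filter at a mean of 50 counts, the replicate block, only the groups compared, stricter thresholds, each library left out, and shRNA3 without libraries 1 and 2. The summed class I count, and the lists without shRNA3 libraries 1 and 2, were added after seeing the data.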

Additional observations from a re-analysis of the deposited data

How the results depend on the processing

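Over the log2 fold changes of the 9 genes in 7 comparisons and their alternatives, 1206 values kept direction and call, 121 lost the call, 34 gained one and 16 turned direction. With 1 library left out in turn, the number of the 9 genes called ranged from 6 to 8 for shRNA1 against NC, 8 to 9 for shRNA2, 6 to 8 for shRNA3, 7 to 9 for their mean, 0 to 6 for shRNA1 against shRNA2, 5 to 8 for shRNA1 against shRNA3 and 0 to 8 for shRNA2 against shRNA3. The last was 3 with all libraries and 8 without library 3 of shRNA3. An adjusted p under 0.01 gave 4 genes for shRNA1 against shRNA3 (7.12% of all genes) and 0 for shRNA2 against shRNA3 (0.0228%). Adding a minimum log2 change of 1 gave 4 for shRNA3 against NC (39.4% of all genes) and 5 for the mean (39.9%). Fits of only the groups compared gave 3, 0 and 0 for shRNA1 against shRNA2, shRNA1 against shRNA3 and shRNA2 against shRNA3, where edgeR called 41.0%, 0% and 0% of all genes (4295 and 3186 genes of the last pairs had an unadjusted p under 0.05). The DESeq2 Wald test gave 7 for shRNA2 against shRNA3 (21.6% of all genes). Without libraries 1 and 2 of shRNA3 the 3 pairs gave 6, 3 and 1 (36.8% of all genes called in the first, 4.88% and 0.707% lower in the others).

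Directions turned as follows, and the cause was not tested. HLA-E with shRNA3 against NC was -0.26 by library totals, -0.0655 without shRNA3 library 1 (0.6253 without library 3, the highest) and -1.58 without shRNA3 libraries 1 and 2. Without these libraries, shRNA1 against shRNA3 was 0.40 for HLA-E, 0.35 for B2M and -0.19 for TAP2, and shRNA2 against shRNA3 was 0.0455 for HLA-E, 0.29 for HLA-F and 0.0062 for B2M. TAP2 between shRNA1 and shRNA3 ranged from -0.0609 (without shRNA3 library 2) to 0.196 (without shRNA3 library 3) and was also below 0 without shRNA1 library 3 (-0.03) or shRNA3 library 1 (-0.02). TAP2 between shRNA2 and shRNA3 was 0.11 by library totals and ranged from -0.164 to 0.0866 with 1 library left out, the highest without shRNA3 library 3. Without shRNA1 library 3, NLRC5 was 0.0752 with shRNA1 against NC and TAP1 was 0.0125 between shRNA1 and shRNA2 (-0.1339 without shRNA1 library 1, the lowest).

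Scaling by library totals put the median log2 fold change of all genes at -0.10, -0.18 and -0.35 with shRNA1, shRNA2 and shRNA3 (-0.02, -0.05 and -0.03 by TMM), and moved the share of higher calls with shRNA3 from 48.9% to 35.1%. It called B2M lower with shRNA3 (log2 -0.80, edgeR adjusted p = 0.00565). With the replicate block the counts against NC were 8, 8 and 7, as without it (55.3%, 51.0% and 52.0% of all genes were called). Only HLA-E between hairpins lost its call (edgeR adjusted p = 0.0508 for shRNA1 and 0.0624 for shRNA2 against shRNA3). The replicate numbers do not pair the libraries: same-numbered libraries correlated in their deviations at -0.0963 to 0.0968. Depth leaves FMOD and several of the class II genes of the shRNA libraries at the limit of detection.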
